A study of Mus musculus with 6 samples.

Results

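Cxcl1, Cxcl2 and Cxcl3 encode chemokines that attract neutrophils, and Cxcr2 encodes the receptor through which neutrophils sense them. The genes were taken by symbol, and all 4 were found among the 20394 genes of the table. Single cell RNA sequencing had been done on synovial cells carrying CD45, a surface protein of leukocytes, from mice with antigen-induced arthritis (AIA). In the study the peptide PEPITEM was tested as a treatment, and the cell table allowed the question of which cells from the digested joints carry these transcripts. The mice were male C57BL/6 animals, bought at 8 weeks of age, that had been immunized with 10 μg of methylated bovine serum albumin (mBSA) in Freund's complete adjuvant. They received 100 μg of mBSA into the joint on day 21, and cells were collected on day 3 after this challenge. All samples shared this disease induction. After the challenge, 2 samples came from mice given phosphate buffered saline (PBS) and 4 from mice given 300 μg of PEPITEM into the peritoneum. The sources used here do not say whether several mice were pooled in a sample, and a sample without arthritis was not analysed here.

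Each barcode closes with a library number, 1 to 6, and no source used here links these numbers to the PBS or PEPITEM samples. The numbers were therefore used as libraries of unknown treatment, treatments were not compared, and no test over libraries was made. The libraries held 2919 to 9345 cells of 32953 in all, and 47273569 to 123367661 unique molecular identifiers (UMIs, each a counted RNA molecule). Levels are the UMIs of a gene scaled to 1000000 UMIs of the same cells (CPM). Such counts do not depend on transcript length in the way whole-transcript reads do, but genes can differ in capture, so levels are compared between cells and not between genes. Pooled levels carry exact Poisson 95% intervals and shares of cells carry Wilson 95% intervals, both of which cover counting error only. Cells were clustered without the 4 genes, and clusters were named from marker genes, so "-like" refers to markers and not to sorted cells. Ranges over libraries use libraries with at least 20 cells of a class, and 20 classes with at least 50 cells were ranked. A total of 138 barcodes occurred in more than 1 library (276 cells, 0.838%), of which 17 had all their cells in the same class. The sorted cells included 942 stem and progenitor cell-like cells and 162 fibroblast-like cells, and a UMI of Ptprc, the gene of CD45, was found in 22.8% of the latter. They also included 668 granulocyte precursor-like cells and a B cell-like cluster of 555 cells led by Vpreb1 and Igll1, genes of B cell precursors. The part of bone marrow cells in the table, also among the neutrophil-like and monocyte-like classes, was not tested.

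Chemokines of this kind carry a glutamate, leucine and arginine (ELR) motif in front of their CXC cysteines and guide neutrophils out of the blood and into inflamed tissue such as the arthritic joint. Their genes are switched on quickly through NF-kappaB when cells sense interleukin 1, tumor necrosis factor or microbial products, and their messenger RNAs are short-lived. Cxcr2 is a G protein-coupled receptor that neutrophils gain as they mature, and it opposes Cxcr4, which holds neutrophils in the bone marrow.

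The 3 chemokine genes lie in a cluster of CXC chemokine genes on the plus strand of chromosome 5 (GRCm38, GENCODE annotation), in the order Cxcl5, Ppbp, Pf4, Cxcl3, Cxcl15, Cxcl1 and Cxcl2. Cxcl3 (ENSMUSG00000029379) spans chr5:90786103-90789600, Cxcl1 (ENSMUSG00000029380) spans chr5:90891241-90893115 and Cxcl2 (ENSMUSG00000058427) spans chr5:90903871-90905938. Between Cxcl1 and Cxcl2 lie 10755 bases. Cxcr2 (ENSMUSG00000026180) lies on the plus strand of chromosome 1 at chr1:74153989-74161246. All 4 are protein-coding, and no annotated gene overlaps any of them.

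The stretches directly upstream of the 3 chemokine genes are shown because they share a pair of motifs in the same order. The letters come from RefSeq promoters (GRCm38.p6, plus strand, 5′ to 3′), ending before the annotated gene start. Capitals mark GGAATTTCC, a match to the form of sequence bound by NF-kappaB, and ATAAAAGG, a TATA box-like sequence. Cxcl1 is shown from chr5:90891145-90891240, Cxcl2 from chr5:90903799-90903870 and Cxcl3 from chr5:90786001-90786100.
Cxcl1: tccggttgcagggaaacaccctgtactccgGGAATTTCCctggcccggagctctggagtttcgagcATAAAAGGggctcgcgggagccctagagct
Cxcl2: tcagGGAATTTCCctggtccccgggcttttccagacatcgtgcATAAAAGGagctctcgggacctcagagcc
Cxcl3: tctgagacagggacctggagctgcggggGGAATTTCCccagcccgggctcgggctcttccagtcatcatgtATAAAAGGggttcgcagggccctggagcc

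GGAATTTCC lay 70 to 62 bases upstream of the RefSeq start in Cxcl1, 96 to 88 bases upstream in Cxcl2 and 72 to 64 bases upstream in Cxcl3. The TATA box-like sequence followed after 27 bases in Cxcl1, 30 in Cxcl2 and 34 in Cxcl3. Counted on both strands (GGAAATTCC and CCTTTTAT on the other), GGAATTTCC was found in 94 of 32851 promoter windows of 250 bases (0.286%) and ATAAAAGG in 507 (1.54%). Both occurred together in 3 windows, those of Cxcl1, Cxcl2 and Cxcl3. The window of Cxcr2 held no GGAATTTCC. Among 11 NF-kappaB response genes with a promoter in the table, GGAATTTCC was found in 4 (Icam1, Ier3, Nfkbia and Tnfaip3), and the other gene lists had none. The motifs were chosen after the 3 sequences had been seen, and a match does not show that a factor binds there.

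Of the 4 genes, Cxcl2 was found in the largest number of cells, with 372835 UMIs in 13171 cells (39.97%). Cxcr2 followed with 56085 UMIs in 13053 cells (39.61%). Cxcl1 had 14551 UMIs in 824 cells (2.50%) and Cxcl3 had 6235 UMIs in 1105 cells (3.35%). Over all cells of a library, Cxcl2 ranged from 376 to 1297 CPM and Cxcr2 from 67.0 to 149.6. Cxcl1 ranged from 3.56 to 110.1 and Cxcl3 from 4.85 to 33.1. These ranges also contain the different cell mixtures of the libraries, so the levels within each class are given next.

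**Figure D1:**
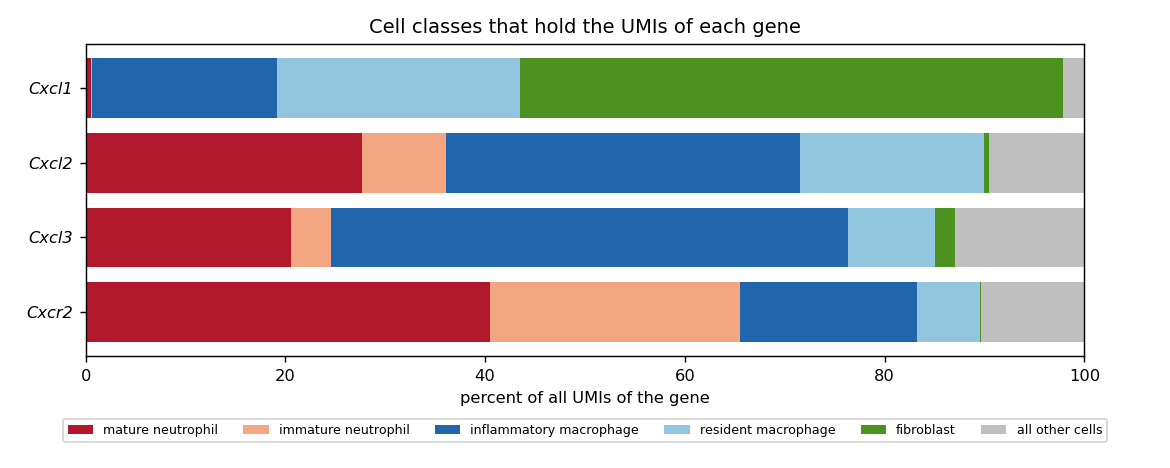
Each bar splits all UMIs of 1 gene (x axis, percent) among 5 cell classes and the remaining cells. Fibroblast-like cells held 54.4% of Cxcl1, both macrophage-like classes together with mature neutrophil-like cells held most of Cxcl2 and Cxcl3, and neutrophil-like cells held most of Cxcr2.

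Cxcl1 stood apart from the other chemokine genes in where it was found. Fibroblast-like cells, marked by collagen, decorin (Dcn) and lubricin (Prg4) genes, held 7915 of its UMIs (54.4%) although they were only 162 cells. Their pooled level was 2872 CPM (interval 2809 to 2936), with a UMI in 68.5% of the cells (interval 61.01% to 75.2%). By library, it was 4534 in library 1 (50 cells) and 1770 in library 5 (63 cells), while the other libraries had too few such cells. The pooled level without library 1 was 1822 CPM, which is lower by more than 1.5 times. Both libraries were above every library of the next class in the order, resident macrophage-like cells, a gap also seen for 26.9% of 11053 genes between these classes. Of the fibroblast-like cells, 29 had a UMI of S100a8 or S100a9, and without them the level was 3151.

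Macrophage-like cells followed. Resident macrophage-like cells, named from Lyve1, Cd163 and other genes of tissue macrophages, had 93.9 CPM of Cxcl1 (interval 90.9 to 97.1) with a UMI in 12.6% of 2538 cells. Their level in libraries 1 to 6 was 95.7, 93.0, 150.3, 72.6, 107.6 and 37.5. Library 6 was lowest and library 3 highest, and all 6 stood below both libraries of the fibroblast-like cells. Inflammatory macrophage-like cells, with Arg1, Cxcl9 and other genes of recruited macrophages, had 27.6 CPM (interval 26.6 to 28.6). In libraries 1 to 6 these cells had 21.0, 47.7, 46.5, 17.9, 5.22 and 5.76, and libraries 5 and 6 were lowest. The ranges of both macrophage-like classes overlapped between 37.5 and 47.7, but within each library the level was higher in resident macrophage-like cells.

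Cxcl1 was scarce in the remaining classes. In B cell-like cells, which are not known as a source of these chemokines, 0.272% of cells had a UMI of Cxcl1, at a median depth of 5834 UMIs per cell. The share was 0.464% in mature neutrophil-like cells, at a median depth of 4884, and 32 of 74 UMIs there came from a single cell. With each cell thinned to 2000 UMIs, the share was 0.194% in these neutrophils and 0.0423% in B cell-like cells. Classical monocyte-like cells had 0.157 CPM, and none of 130 type 2 innate lymphoid cell-like cells had a UMI, which allows up to 2.665 CPM at 3 counts, with an upper bound of 3.277 in the exact interval. Cells with a UMI of Cxcl1 usually carried Cxcl2 as well in the macrophage-like classes (in resident macrophage-like cells 95% of Cxcl1-positive and 57.8% of Cxcl1-negative cells, and in inflammatory ones 94.7% and 69.0%). In fibroblast-like cells the corresponding shares were 39.6% and 21.6%. The positive cells were the deeper ones in each class, but after thinning the shares were still 93.1% and 47.1% in resident and 87.7% and 49.5% in inflammatory macrophage-like cells, and 25.3% and 14.3% in fibroblast-like cells.

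Cxcl2 was spread over the myeloid cells and peaked in mature neutrophils. Mature neutrophil-like cells, with Csf3r, Il1r2 and Stfa2l1 among their markers, had 3227 CPM (interval 3207 to 3247). In libraries 1 to 6 the level was 5966, 4095, 4915, 3418, 3177 and 1751. Library 1 was highest and library 6 lowest, with a UMI of Cxcl2 in 88.2% and 68.9% of the mature neutrophil-like cells. Pooled over libraries, the share was 76.9% (interval 75.8% to 78.0%), against 4.21% in B cell-like cells. The median depth was 4884 UMIs in mature neutrophil-like and 5834 in B cell-like cells. After thinning to 2000 UMIs the shares were 68.1% and 2.07%.

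Immature neutrophil-like cells, with Ltf, Ngp and Camp of the secondary granules among their markers, carried less Cxcl2. Their pooled level was 342.6 CPM (interval 338.8 to 346.4), and libraries 1 to 6 had 568.5, 658, 880.1, 179.8, 342.2 and 162.2. Mature neutrophil-like cells held 17.7 UMIs of Cxcl2 for each cell and immature ones 6.24, at median depths of 4884 and 14251 UMIs. For Cxcr2 the values were 3.9 and 2.80 UMIs for each cell, and for Cxcl3 0.220 and 0.0502. Relative to all UMIs, the level of Cxcl2 was 9.42-fold higher in mature than in immature neutrophil-like cells. The lowest mature library (1751) was above the highest immature one (880.1). Such a gap with no overlap between the libraries was counted as a call, over all genes with at least 5 CPM in 1 of both classes. Of 7669 such genes, 1792 (23.4%) were higher in mature and 2930 (38.2%) lower, so that a gap alone is frequent between these classes. Cxcl2, Cxcl3 and Cxcr2 were all higher in mature neutrophil-like cells, and Cxcl1 was below the limit. Cxcl3, with 2.76 CPM in immature cells, reached the limit in the mature class alone, so it could not have been called lower. The median log2 ratio, with 1 added to each level, was 2.72 over the 4 genes and -0.31 over all genes compared. The mature class includes a cluster led by Retnlg (1648 cells) that had as many immature as mature markers, 2 of each, among its top 10 genes. Counted as immature, it gave Cxcl2 at 4329 (libraries 2342 to 6754) in mature and 438.3 (242.1 to 1006) in immature neutrophil-like cells. Cxcr2 was then at 749.7 (604.7 to 837.1) and 207 (142.7 to 224.7), and Cxcl3 at 56.57 (12.74 to 190.1) and 3.53 (1.31 to 8.11). All 3 genes were again higher without overlap, where 25.0% of 7642 genes were higher and 33.2% lower. Cxcl3 again reached the limit in the mature class alone.

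**Figure D2:**
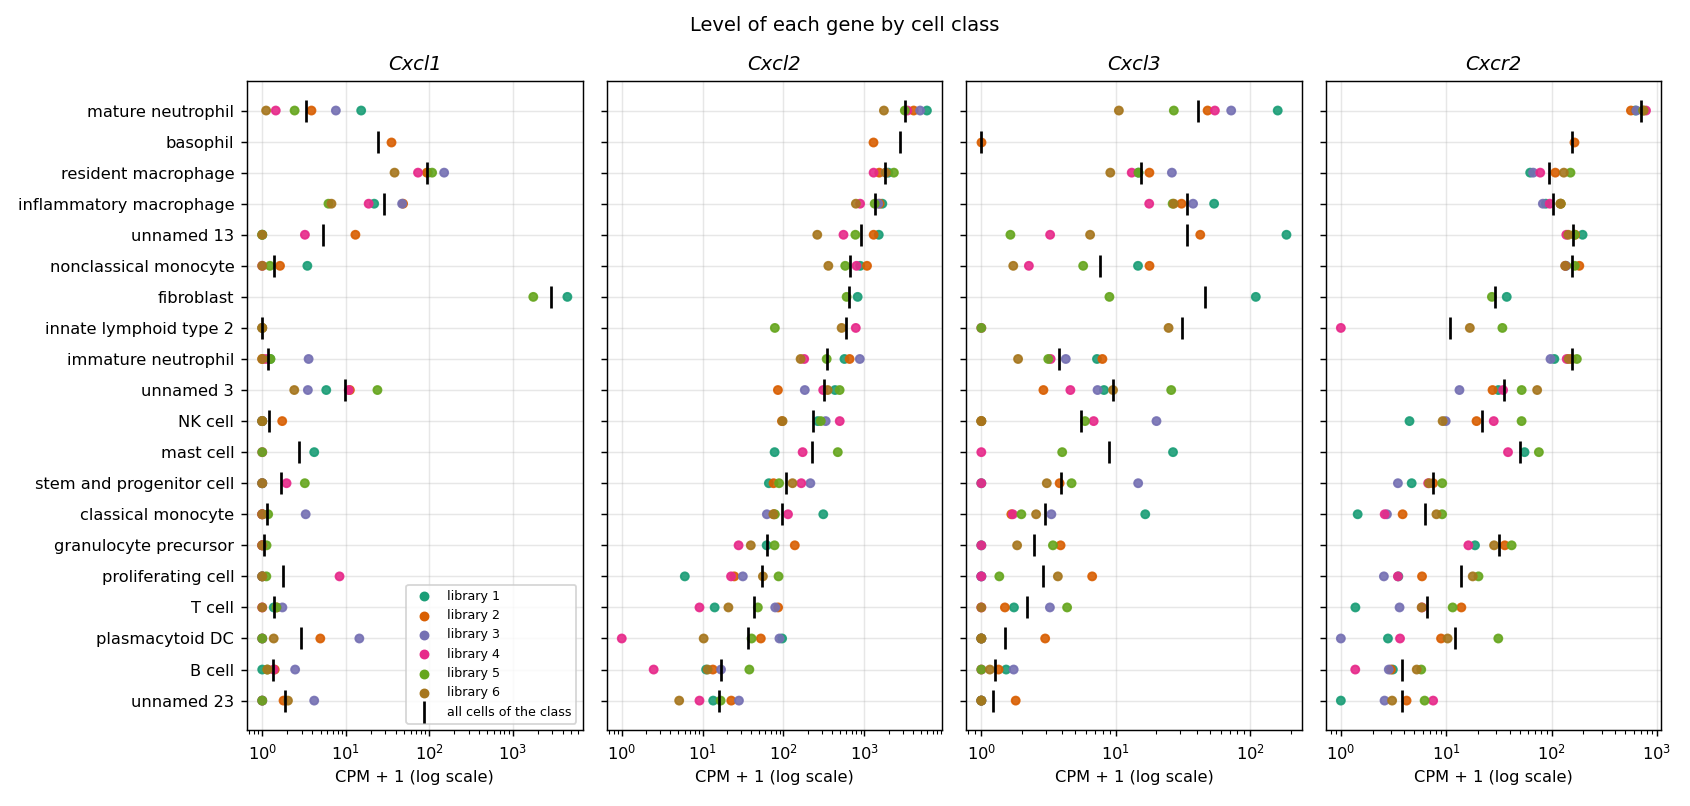
CPM of each gene (x axis, log scale, 1 added) in 20 classes (y axis), with 1 point for each library with at least 20 cells of the class and a bar for the pooled level. Cxcl1 peaks in fibroblast-like cells, Cxcl2 and Cxcr2 in mature neutrophil-like cells, and the libraries of Cxcl3 overlap widely.

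Inflammatory macrophage-like cells held more UMIs of Cxcl2 than mature neutrophil-like cells did, although their level relative to all UMIs was lower. Inflammatory macrophage-like cells had 1348 CPM (interval 1341 to 1355), with libraries 1 to 6 at 1674, 1552, 1491, 888, 1346 and 787. All of these were below the lowest library of mature neutrophil-like cells (1751), and 13.2% of 8998 genes were likewise higher in the mature neutrophil-like cells without overlap. The class nevertheless held 132100 UMIs (35.4% of all), against 103148 (27.7%) in mature neutrophil-like cells, which is 30.5 and 17.7 UMIs for each cell at median depths of 19769 and 4884. In its cluster led by Ccl8 and Apoe, 98.2% of 1957 cells had a UMI of S100a9, a neutrophil transcript. In that led by Cxcl10 and Cxcl9, 7.61% of 2380 cells did. The first held more Cxcl2 UMIs in each library (6790 to 23909, against 2099 to 11188). The part of neutrophil RNA in these UMIs was not tested. In resident macrophage-like cells the level was 1827 (interval 1814 to 1841), with libraries at 1983, 1534, 1846, 1305, 2327 and 1850. Library 5 was highest here, whereas library 1 was highest in mature neutrophil-like and inflammatory macrophage-like cells. The libraries of resident macrophage-like cells overlapped with those of both other classes.

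Classical monocyte-like cells, the blood-derived precursors of many inflammatory macrophages, had 94.3 CPM of Cxcl2 (interval 91.3 to 97.4). Their libraries stood at 310.5, 75.3, 61.4, 113, 77.5 and 74.1, with library 1 far above the others. All 4 genes had higher levels in inflammatory macrophage-like than in classical monocyte-like cells with no overlap of the libraries, where 14.6% of 9394 genes did so and 20.9% were lower. Inflammatory macrophage-like cells with no UMI of S100a8 and S100a9, described further on, had 2.03 CPM of Cxcr2 (libraries 1.02 to 3.49). These overlapped the classical monocyte-like libraries (0.444 to 8.14), from which cells with S100a8 or S100a9 had not been left out. Between the whole classes, the ratio of inflammatory macrophage-like to classical monocyte-like cells was 14.3 for Cxcl2 and 16.6 for Cxcl3. For Cxcl1 it was 176, against a class with 6 UMIs in all. Cxcl1 and Cxcl3 (0.157 and 1.99 CPM in classical monocyte-like cells) reached the limit of 5 CPM in the inflammatory class alone, so they could not have been called lower. From inflammatory to resident macrophage-like cells, 20.5% of 9525 genes were higher without overlap and 7.02% lower, and all 4 genes overlapped. Compared within each library, however, resident macrophage-like cells had more Cxcl1 and less Cxcl3 every time (in library 6, 37.5 against 5.76 and 8.10 against 25.9). Cxcl2 and Cxcr2 went both ways.

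Smaller classes with high Cxcl2 rested on few cells. The 52 basophil-like cells, named from Mcpt8 and Prss34, had 2808 CPM, but 71.2% of these UMIs came from 5 cells. The single library with at least 20 of these cells, library 2, had 1281. In the 130 type 2 innate lymphoid cell-like cells the level was 600.6, with 67.8% of UMIs in 5 cells. Within the large classes the UMIs were also unevenly spread, and the top 10% of cells held 48.3% of Cxcl2 UMIs in mature neutrophil-like, 57.1% in resident macrophage-like and 53.1% in inflammatory macrophage-like cells.

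**Figure D3:**
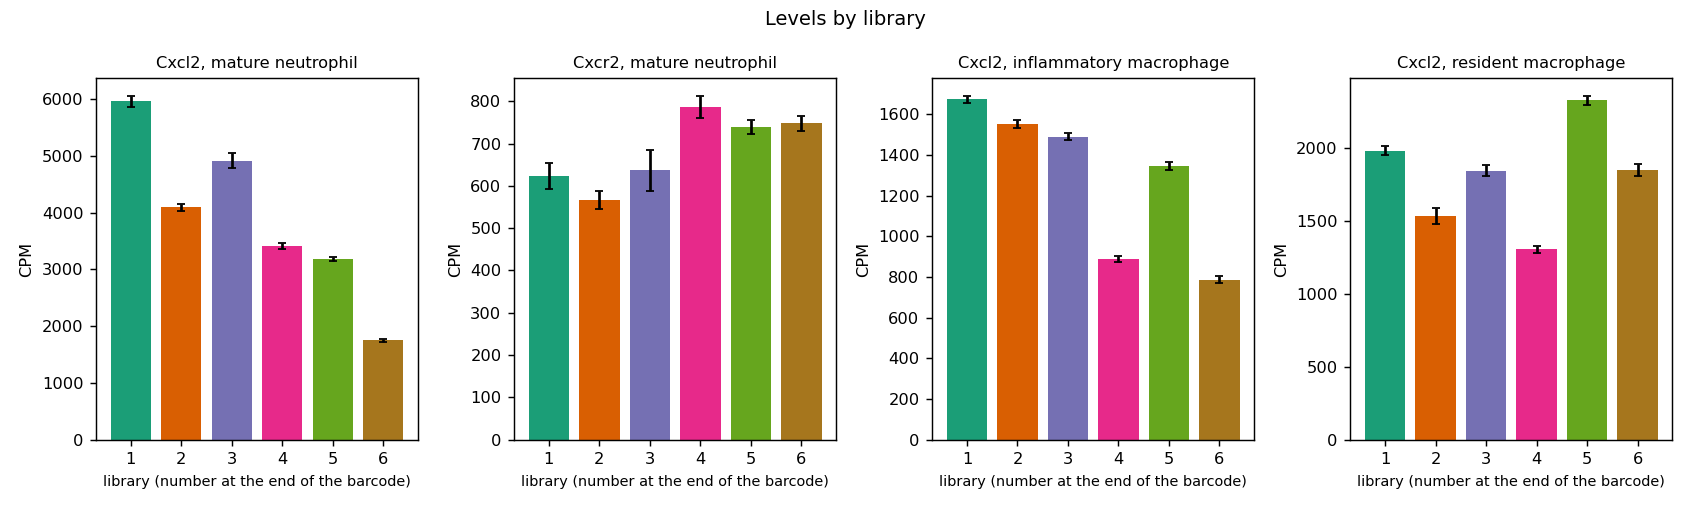
Bars show CPM (y axis) of Cxcl2 or Cxcr2 in 3 classes by library (x axis), with error bars for the 95% counting error of the UMIs. In mature neutrophil-like cells, Cxcl2 lies between 1751 and 5966 and Cxcr2 between 566 and 787.

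Cxcl3 was scarce in all classes and had no leading class that stood clear of the others. Fibroblast-like cells had the highest pooled level with 44.6 CPM, but its 123 UMIs came from 3 cells, and without library 1 the level was 4.15. Mature neutrophil-like cells followed with 40.0 (interval 37.9 to 42.3). In libraries 1 to 6 they had 158.6, 47.1, 71.0, 53.5, 26.0 and 9.53. As for Cxcl2, library 1 was highest and library 6 lowest, and without library 1 the pooled level was 30.3. Inflammatory macrophage-like cells had 32.9 (interval 31.8 to 34.1), with libraries at 52.8, 29.8, 36.5, 16.7, 25.4 and 25.9. They held 51.7% of all Cxcl3 UMIs, and a UMI was found in 9.89% of these cells (median depth 19769 UMIs), in 4.76% of mature neutrophil-like cells (4884 UMIs) and in 0.147% of B cell-like cells (5834 UMIs). At 2000 UMIs per cell the shares were 3.12%, 3.01% and 0.0212%, and the first and second differed little.

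Cells with Cxcl3 were mostly cells that also carried Cxcl2. Among mature neutrophil-like cells, Cxcl2 was found in 94.95% of Cxcl3-positive and 76.0% of Cxcl3-negative cells. The shares were 94.9% and 68.0% in inflammatory macrophage-like cells and 97.6% and 60.6% in resident macrophage-like cells. After thinning, the positive cells had 90.0%, 87.2% and 95.1% and the negative cells 67.4%, 49.3% and 49.65%. For every 100 UMIs of Cxcl2 there were 1.24 of Cxcl3 in mature neutrophil-like, 2.44 in inflammatory macrophage-like and 0.792 in resident macrophage-like cells. The transcripts of Cxcl2 and Cxcl3 share an identical run of 110 bases, the longest shared by any pair of the 3 chemokine genes (23 bases for the others). It ends 939 bases from the 3′ end of Cxcl2 and 850 bases from that of Cxcl3, and how reads from this run were assigned is not given in the sources used here.

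Cxcr2 was highest in mature neutrophils, as Cxcl2 was. Its pooled level there was 709.6 CPM (interval 700.4 to 718.9), with a UMI in 90.3% of cells (interval 89.5% to 91.0%). Libraries 1 to 6 had 622.8, 565.9, 637.1, 787.2, 738.6 and 748.1. All 6 were above the libraries (137 to 196) of the next class in the order, an unnamed cluster led by Jchain, Igha and Igkc, a gap found for 11.4% of 9252 genes. A UMI of S100a9 was found in 76.7% of the cells of this unnamed cluster, and the part of neutrophil RNA in its Cxcr2 was not tested. In mature neutrophil-like cells, Cxcr2 differed less between its highest and lowest library than Cxcl2 did. With classes taken from a gate on single cells in place of clusters, the level in mature neutrophil-like cells was 393.8, lower by more than 1.5 times. Immature neutrophil-like cells had 153.9 (interval 151.4 to 156.5), and libraries at 105.3, 154.6, 96.7, 138.3, 172.9 and 144.4. A UMI was found in 73.1% of these deeper cells (median 14251 UMIs), against 1.13% of B cell-like cells.

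In mature neutrophil-like cells the receptor and its ligand were found side by side in the same cells. Both Cxcl2 and Cxcr2 were detected in 69.3% of cells, and in 48.6% after thinning to 2000 UMIs. Cxcr2 was detected in 90.2% of Cxcl2-positive and 90.6% of Cxcl2-negative cells (71.4% and 71.5% after thinning). Over the pooled class, detecting the ligand therefore said little about detecting the receptor. The clusters of this class were not counted apart. In immature neutrophil-like cells the shares with Cxcr2 were 87.1% and 65.3%, and the Cxcl2-positive cells were deeper (median 15805.5 against 13396 UMIs). After thinning they were 38.6% and 25.7%.

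The immature and mature neutrophil-like clusters, put in order by the summed level of 9 immature neutrophil markers, showed Cxcr2 and Cxcl2 at different sizes of change. This sum ranged from 120600 CPM in the cluster led by Ltf and Ly6g to 13680 in that led by Irg1 and Csf1. Precursor-like cells led by Elane and Mpo were placed first by their class, although their sum was 37710 CPM. They had 31.0 CPM of Cxcr2 and 61.6 of Cxcl2. Immature cells led by Ltf and Ly6g had 103.3 of Cxcr2 and 46.6 of Cxcl2, and those led by Chil3 and Camp had 72.4 and 233. The latter had more Mki67, a gene of dividing cells (598.6 against 44.5 CPM), so the order is not a course of maturation. In immature cells led by Mmp8 and Mmp9, the genes of collagenase 2 and gelatinase B, Cxcr2 was at 339 and Cxcl2 at 299.9. Among mature cells, the cluster led by Retnlg had 636 of Cxcr2 and 1212 of Cxcl2, and that led by Gm5483 and Stfa2l1 had 763 and 3261. The cluster led by Irg1 and Csf1 had 733 of Cxcr2 and the highest Cxcl2 with 5689. From the cluster led by Mmp8 to that led by Irg1, Cxcl2 thus covered a far wider range than Cxcr2. Between the clusters led by Gm5483 and Irg1 the libraries overlapped for Cxcr2 (635.6 to 843.3 and 567.2 to 828.5) and for Cxcl2 (2034 to 4924 and 2908 to 8014). Within each library, Cxcl2 was higher in the cluster led by Irg1, whereas Cxcr2 went both ways. Cxcr4, the marrow retention receptor, was at 33.0 in the cluster led by Ltf and Ly6g and at 647.5 in that led by Irg1.

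**Figure D4:**
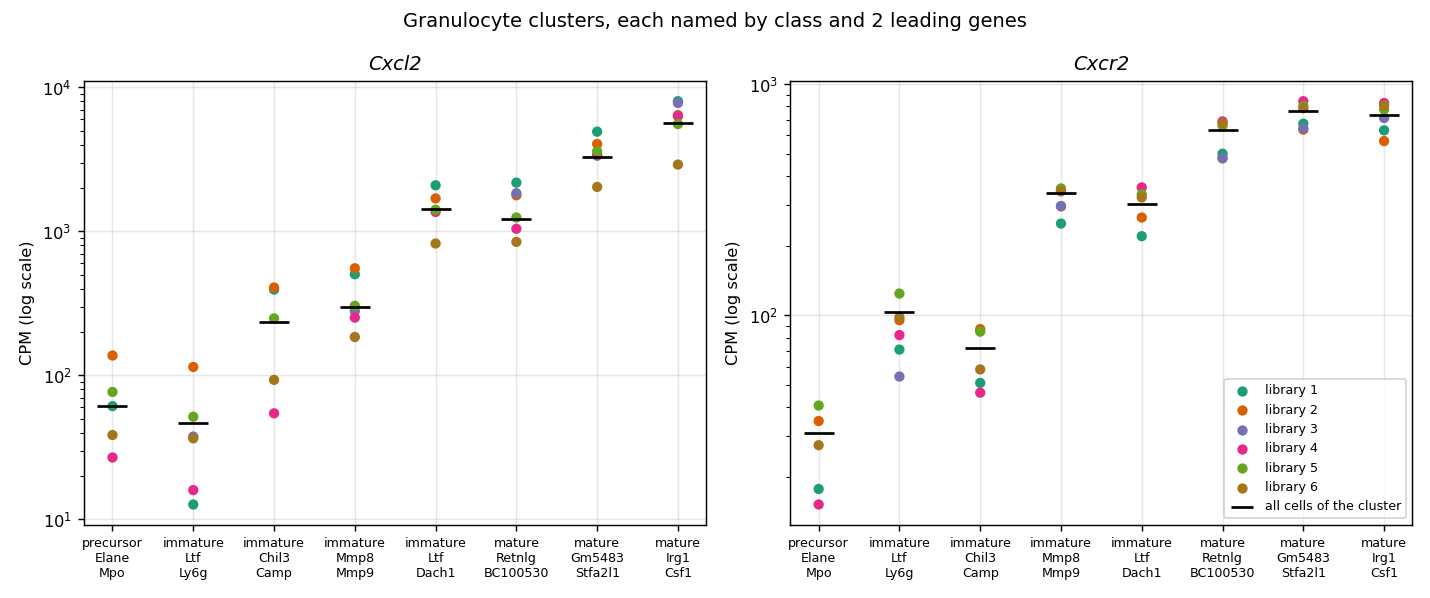
CPM (y axis, log scale) of Cxcl2 and Cxcr2 in 8 granulocyte clusters (x axis), each with its class and 2 leading genes, with 1 point a library and a bar for the pooled level. Cxcr2 reaches 339 in the immature cluster led by Mmp8, where Cxcl2 is at 299.9, and Cxcl2 reaches 5689 in the cluster led by Irg1.

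An immature cluster led by Ltf and Dach1 (620 cells), near the cluster led by Mmp8 and Mmp9 in this order, had 1420 CPM of Cxcl2 and 302.6 of Cxcr2. Cxcl2 was at 299.9 in the cluster led by Mmp8 and Mmp9. Both clusters were near each other in Ltf, the lactoferrin gene of immature cells (8313 and 8489), and in the sum of the mature markers (9046 and 7983). They differed in other genes, with Il1b at 2387 and 880.4, Retnlg at 12370 and 21510, and Fcnb at 177.4 and 24.2. The median depth was 17226.5 UMIs in the cluster led by Ltf and Dach1, against 9044 in that led by Mmp8 and Mmp9. The part of depth in these levels was not tested.

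In macrophage-like cells, Cxcr2 was found mainly in cells that also held S100a8 or S100a9, which encode abundant calcium-binding proteins of neutrophils. The table keeps some entries written out as 0, and for S100a8 and S100a9 it did so in 48.3% and 48.6% of all cells. Among the 4 genes, Cxcl2 had such entries in 6.47% of cells and the others in at most 0.510%. Whether these reflect the removal of ambient RNA was not tested. Inflammatory macrophage-like cells had 101.3 CPM of Cxcr2 as a class, with libraries between 81.7 and 121.4. Cells of this class with no UMI of S100a8 and S100a9 (2210 cells) had 2.03 (interval 1.61 to 2.53, libraries 1.02 to 3.49), with a UMI in 2.49% of cells. The 2127 cells with at least 1 such UMI had 166.5 (libraries 132.6 to 204.1), with a UMI in 85.1% of cells. The libraries of both sets stood apart, as they did in this direction for 8.19% of 9074 genes.

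All 18 neutrophil markers were higher in the inflammatory macrophage-like cells with S100a8 or S100a9, and their sum was 24740 CPM (libraries 16840 to 38780) against 774 (597 to 1142). None of the 18 was at 0 in either set. The 18 macrophage markers summed to 4086 and 4560. The median depth was 25393 UMIs in cells with and 16817.5 UMIs in cells without these transcripts. Per 100 UMIs of Csf3r, the receptor gene for the neutrophil growth factor G-CSF, there were 43.1 UMIs of Cxcr2 in cells with S100a8 or S100a9 and 2.87 in cells without. Mature neutrophil-like cells had 56.9. The part of neutrophil RNA in the Cxcr2 of macrophage-like cells was not tested.

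Most other classes showed a split in the same direction. Resident macrophage-like cells without S100a8 and S100a9 had 1.67 CPM of Cxcr2 (1669 cells), and those with either had 219.4 (869 cells), where 9.27% of 9680 genes were higher without overlap. Their neutrophil markers summed to 215.5 (libraries 173 to 276) and 23610 (11470 to 33650), again with all 18 higher and none at 0. Nonclassical monocyte-like cells had 7.74 and 168, and T cell-like cells 0.312 and 129.7. B cell-like cells had 1.48 and 27.8. In basophil-like cells the intervals overlapped (129, interval 76.4 to 203.8, and 165.2, interval 126.3 to 212.1), and after thinning more of the cells without than with S100a8 or S100a9 had a UMI of Cxcr2 (27.27% of 22 and 10.71% of 28 cells). An unnamed cluster of 832 cells also overlapped, with 2.68 and 3.74. The levels in macrophage-like cells without S100a8 and S100a9 (2.03 and 1.67) were thus within the range of the B cell-like libraries as a whole (0.370 to 4.795).

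**Figure D5:**
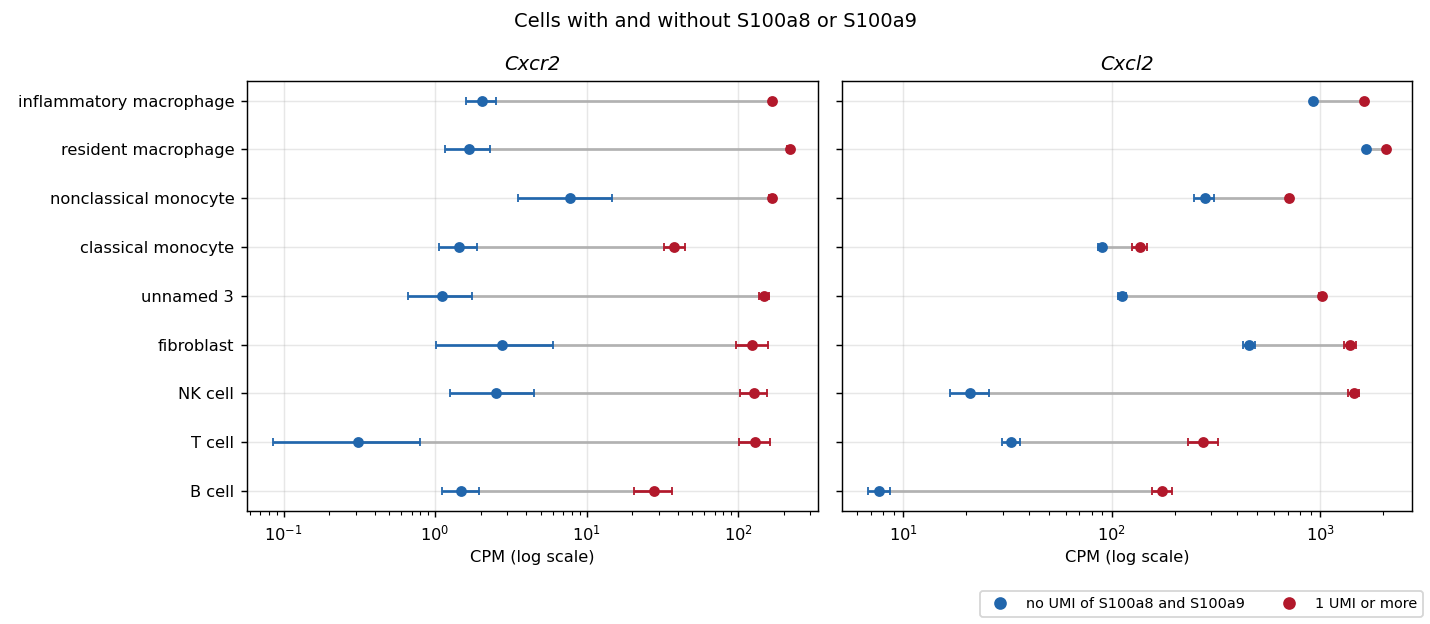
CPM (x axis, log scale) of Cxcr2 and Cxcl2 in 9 classes (y axis), for cells with no UMI of S100a8 and S100a9 and for cells with 1 or more, with exact Poisson 95% intervals. Cxcr2 is at 2.03 in inflammatory and 1.67 in resident macrophage-like cells without these transcripts, while Cxcl2 is at 922 and 1657.

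Cxcl2 and Cxcl1 were found also in macrophage-like cells without S100a8 and S100a9. Cxcl2 was 922 CPM in such inflammatory macrophage-like cells (libraries 400.5 to 1164) and 1628 in the cells with these transcripts. In resident macrophage-like cells it was 1657 (libraries 1078 to 2122) and 2057. A UMI of Cxcl2 was found in 51.9% of inflammatory and 53.8% of resident macrophage-like cells without S100a8 and S100a9. Cxcl1 was higher without these transcripts in resident macrophage-like (129.6 against 45.7) and fibroblast-like cells (3151 against 1823). No library held at least 20 fibroblast-like cells with these transcripts. The share of inflammatory macrophage-like cells with a UMI of Cxcl1 went the other way. Among cells deep enough for thinning, it was 4.72% without and 8.42% with these transcripts. After thinning it was 2.27% and 3.10%. In natural killer cell-like cells, by contrast, Cxcl2 was 20.9 without and 1444 with S100a8 or S100a9.

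Other members of the ELR family were hardly found. Cxcl5, a further ligand of Cxcr2, reached 13.8 CPM in fibroblast-like cells and at most 0.374 elsewhere. Ppbp, the platelet ligand, reached 2.63, and Cxcl15 did not pass 0.0939 in any class. Cxcr1, the sister receptor of Cxcr2, had 20.9 in mature and 1.24 in immature neutrophil-like cells, and it shares at most 14 identical bases in a row with Cxcr2. Ackr1, a decoy receptor of chemokines, was highest in fibroblast-like cells with 24.3. Of these 5 genes, Cxcr1 alone reached 5 CPM in a neutrophil class, the mature one, so it could not have been called lower. Its libraries did not overlap between mature and immature cells.

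Relative to all UMIs, other receptors for neutrophil attraction and retention were mostly higher in mature neutrophil-like cells, as Cxcr2 was. Of 7 such genes, 5 were higher in mature than in immature neutrophil-like cells without overlap of libraries, among them the retention receptor Cxcr4. Only 1 was lower (all genes: 23.4% higher and 38.2% lower). Ccr1, a receptor of CC chemokines, had 817 against 189 CPM, and C5ar1, the receptor of complement C5a, had 607 against 221. Cxcr4 had 359 against 69.1. Ltb4r1, the receptor of leukotriene B4, went the other way with 78.3 against 283.5, and Fpr2 overlapped at 250.7 and 204.6. In inflammatory macrophage-like against classical monocyte-like cells, 3 of the 7 were higher and none lower (all genes: 14.6% and 20.9%). In resident against inflammatory macrophage-like cells C5ar1 was higher and Ltb4r1 lower, 1 of 7 each (all genes: 20.5% and 7.02%). For this list and those below, macrophage-like cells with S100a8 or S100a9 were not left out. The part of neutrophil RNA in these counts was not tested.

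The genes that carry the signal of Cxcr2 into the cell showed no common direction. Of 10 genes, 4 were higher in mature neutrophil-like cells relative to all UMIs (Gnai3, Arrb1, Pik3cg and Adrbk1, the older symbol of Grk2). Another 3 were lower (Arrb2, Grk6 and Plcb2). Over all genes, 23.4% were higher and 38.2% lower, so neither count stands far from the background. With the cluster led by Retnlg counted as immature, 4 were higher and 4 lower, Rac2 being the further one. Arrb2, which takes part in receptor uptake, had 111 against 187 CPM, and Adrbk1, a kinase that desensitizes receptors, had 248 against 159.9. Of the same genes, 4 were higher and 2 lower in inflammatory macrophage-like than in classical monocyte-like cells (all genes: 14.6% and 20.9%). In resident against inflammatory macrophage-like cells, 3 were higher and 1 lower (all genes: 20.5% and 7.02%).

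Most receptors on the inducing side were higher in mature neutrophil-like cells relative to all UMIs. These cells had a median depth of 4884 UMIs, against 14251 in immature ones, and UMIs for each cell were not compared for any of the lists. A gene with a small ratio, such as Myd88 (56.2 against 32.0 CPM), can hold fewer UMIs in each mature cell. Of 7 receptor and adaptor genes, 6 could be compared, and all 6 were higher in mature than in immature neutrophil-like cells without overlap (all genes: 23.4%). Tnfrsf1b, a receptor of tumor necrosis factor, had 312 against 49.0 CPM and Tlr2 had 375 against 106.4. Il1r1, the signalling receptor of interleukin 1, was the gene that could not be compared, with 1.19 in mature and 1.55 in immature neutrophil-like cells against 631 in fibroblast-like cells. The same genes gave 1 higher and 1 lower in inflammatory macrophage-like against classical monocyte-like cells, near the background (all genes: 14.6% and 20.9%), and none without overlap in resident against inflammatory macrophage-like cells (all genes: 20.5% and 7.02%).

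Of 13 NF-kappaB response genes, 8 were higher in mature than in immature neutrophil-like cells relative to all UMIs. None was lower (all genes: 23.4% and 38.2%), and the median log2 ratio was 1.97. The other 5 overlapped, among them Sod2 with 49.3 in mature and 65.5 in immature cells. With the cluster led by Retnlg counted as immature, 9 were higher, with Ccl3 added. Il1b had 6400 against 655 CPM and Ptgs2, the gene of cyclooxygenase 2, had 877 against 74.1. In inflammatory macrophage-like against classical monocyte-like cells 9 of 13 were higher and none lower (all genes: 14.6% and 20.9%), and the median log2 ratio was 1.36 against -0.13 over all genes. Resident macrophage-like cells had 5 higher and 1 lower than inflammatory ones (all genes: 20.5% and 7.02%), with Tnf at 230 against 71.7 and Il1b lower at 1255 against 2385.

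Tissue digestion can itself induce immediate-early genes, so a list of these was counted as well. Of 10 immediate-early and heat shock genes, 7 were higher in mature than in immature neutrophil-like cells relative to all UMIs. None was lower (all genes: 23.4% and 38.2%). Dusp1 had 1549 against 170.4 CPM and Egr1 had 485.5 against 54.4. In resident against inflammatory macrophage-like cells, where the libraries of Cxcl2 overlapped, 7 were higher as well and none lower (all genes: 20.5% and 7.02%), with Hspa1a at 507 against 105.9. In inflammatory macrophage-like against classical monocyte-like cells, where Cxcl2 was 14.3-fold higher, 4 were higher and 1 lower (all genes: 14.6% and 20.9%), and the median log2 ratio was -0.07. The part of tissue processing in the level of Cxcl2 was not tested.

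The genes with the most similar pattern over 20 classes were found by Pearson correlation of log2 levels after adding 1, among 12159 genes with at least 10 CPM in 1 class. The classes share libraries and neutrophil transcripts, so the values are descriptions. Cxcr2 was closest to Retnlg (0.986), Dhrs9 (0.982), Fpr1 (0.98), Scrg1 (0.978) and Stfa2l1 (0.977), of which Retnlg and Stfa2l1 served as neutrophil markers. For Cxcl2 the closest genes were Upp1 (0.936), Irg1 (0.918), Ptgs2 (0.903), Gm14286 (0.886) and Sepn1 (0.884). Cxcl1 was closest to Igf1 (0.932), Ift43 (0.925), Eya4 (0.922), Mxra7 (0.913) and Htra3 (0.909). For Cxcl3 the values were lower, with Phlda1 (0.813), Gbp2 (0.804), Eml1 (0.804), Ifit1 (0.8) and Rhoc (0.775). Between the genes themselves, Cxcl2 and Cxcr2 had 0.851, Cxcl2 and Cxcl3 0.691, and Cxcl1 and Cxcl2 0.492.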

How the data were processed

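Libraries of CD45+ synovial cells were made by the authors with the Chromium 3′ v3.1 chemistry. Reads had been mapped to mm10 (Cell Ranger 7.0.0), ambient transcripts subtracted (SoupX 1.6.2), doublets taken out (DoubletFinder 2.0.3) and cells kept with 200 to 7000 genes and up to 10% mitochondrial reads (Seurat 4.3.0). The deposited values are whole UMI counts for each gene and cell, not scaled for depth, in 1 table of 32953 cells, with 1724738 entries written as 0. No further doublet call was made.

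For clustering, each cell was brought to a total of 10000 and log-transformed. The 2000 most variable genes, without the 4 genes and the gene lists, were reduced to 30 components. Leiden clustering used 15 neighbors, resolution 1.0 and seed 0 (scanpy 1.11.5, leidenalg 0.10.2, igraph 0.11.9, scikit-learn 1.9.0, numpy 2.4.6, pandas 2.3.3, scipy 1.17.1 and matplotlib 3.10.9 in Python 3.11.15). A cluster was named from at least 3 detected markers of a class. Thinning drew 2000 UMIs for each cell and left out shallower cells. The count of genes without overlap between libraries was tested on simulated data. Genes named are the 4 genes, all genes of 6 lists, the 5 genes most similar to each of the 4 and the 3 leading genes of clusters, besides markers and S100a8 and S100a9. The genes, lists and markers were chosen with earlier results of these data known, and the motifs, the split by S100a8 and S100a9 and the change of class of the cluster led by Retnlg once values had been seen. Alternatives were other resolutions, a gate on single cells, the lists kept in clustering, the median over libraries, a depth minimum, thinning, stored zeros counted as detected, and each library left out. No treatment was tested, since libraries carry no treatment label. Promoters are from RefSeq (GRCm38.p6) and gene positions from GENCODE (GRCm38).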

Additional observations from a re-analysis of the deposited data

How the results depend on the processing

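No comparison of treatments was possible because the barcode numbers are not linked to the labelled samples, and no result comes from a test. The classes share the same libraries, but the counts of genes without overlap use ranges over libraries and do not pair classes within a library. Over the other settings, Cxcl1 was highest in fibroblast-like cells, at 3235 CPM with a gate on single cells, 3152 as the median over libraries (2 libraries), 3151 in cells without S100a8 and S100a9, and 1822 to 3389 with 1 library left out. Cxcl2 and Cxcr2 were highest in mature neutrophil-like cells. Cxcl2 was at 4319 and 4364 with resolutions of 0.5 and 2.0, 4165 with the lists kept in clustering, 3116 with the gate, 3757 as the median over libraries, and 3000 to 3788 with 1 library left out. Cxcr2 was at 752.5, 753.9, 740.9, 393.8 and 687.9 in the same order, and 694.9 to 735.2 with 1 library left out. The mature class held 4112 to 4526 cells with both other resolutions and with the lists kept, and 5816 here. The cluster led by Retnlg has 1648 cells, of which 94.7%, 99.8% and 75.1% were in the immature class at resolutions of 0.5 and 2.0 and with the lists kept. With this cluster counted as immature, an alternative added after the data had been seen, mature neutrophil-like cells led with 4329 of Cxcl2, 749.7 of Cxcr2 and 56.57 of Cxcl3, and the counts for the 4 genes and 4 of 6 lists were the same, while the signalling and NF-kappaB lists each gained 1 gene. The leading class of Cxcl3 changed. It was mature neutrophil-like with 55.97 and 57.58 at both resolutions and 54.38 with the lists kept, and inflammatory macrophage-like with 60.23 under the gate. It was fibroblast-like with 58.34 as the median over libraries and 53.29 without S100a8 and S100a9. With 1 library left out it was 32.07 to 61.83, where type 2 innate lymphoid cell-like cells led without library 1 and mature neutrophil-like cells without library 6. A minimum of 2000 UMIs and leaving out shared barcodes moved none of the 4 levels beyond counting error. Thinning lowered the share of positive cells in 76 of 80 combinations of gene and class, and counting stored zeros as detected raised it in 68. A count of 0 allows 0.0939 CPM in mature neutrophil-like cells, and 5.895 in the 52 basophil-like cells, where the depth limits most among the ranked classes.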

Other observations

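Since the labels place no library in a group, values by library in mature neutrophil-like cells are given without comparing treatments. In libraries 1 to 6, Nfkbia, the gene of an NF-kappaB inhibitor that NF-kappaB itself induces, was at 1007, 1072, 953, 396, 492 and 400.5 CPM. Tnfaip3 was at 276, 253, 257.5, 120.5, 142 and 113. Libraries 1, 2 and 3 were the highest for both genes, as they were for Cxcl2 (5966, 4095 and 4915), and the lowest for Cxcr2 (622.8, 565.9 and 637.1). Cxcr4 was at 522, 389.7, 493, 392.5, 331 and 298, without such a gap. The sum of the 13 NF-kappaB response genes was 15670, 12060, 13660, 11460, 10360 and 8634. Among the immediate-early and heat shock genes, the sum was 8813, 7064, 7954, 8104, 7235 and 6191, with library 4 above libraries 2 and 3. The gap was not tested, because its libraries were found from the values themselves. Within clusters, libraries 1, 2 and 3 were also highest for Cxcl2 in those led by Irg1 and Retnlg. In that led by Gm5483, libraries 1 to 6 had 4924, 4043, 3351, 3403, 3600 and 2034, with library 3 below libraries 4 and 5. The mix of clusters also differed. The cluster led by Irg1 held 186 of 356 mature neutrophil-like cells in library 1 and 453 of 1677 in library 6.

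In fibroblast-like cells, Icam1, Sod2 and Myd88 were higher than in any other class, with 570.1, 219.5 and 98.0 CPM, beside Cxcl1, Cxcl5 and Il1r1. Basophil-like cells had 20320 CPM of Ccl4 and 11730 of Ccl3, far above the next classes at 1662 and 272, from 52 cells. Mast cell-like cells had the highest Fos (5270), Egr1 (4220), Jun (5139) and Nfkbiz (1851) but only 221.7 of Cxcl2.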
